A study of Oryza sativa with 12 samples.

Results

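The transcription factor described as bHLH35 was followed through 12 poly-A RNA-seq libraries of wild-type rice (Oryza sativa) roots, 3 in each of 4 groups. Roots had 0.1 mM spermidine together with 100 mM NaCl, 100 mM NaCl alone, 0.1 mM spermidine alone, or no treatment. The treatments lasted 72 hours. No duration is labelled for untreated roots, and the labels number the libraries without saying whether these came from separate plants or cultures, so a p-value here reflects library-to-library spread alone, part of which may be technical. Expression was deposited as FPKM (fragments scaled to transcript length and library size) for 182689 unigenes. A unigene is a group of assembled transcripts and need not be a whole gene. Taking every unigene whose best protein hit in the NR database was from Oryza and whose NR or Swiss-Prot description named bHLH35 gave 7 unigenes of the 182689. bHLH35 was chosen by its measured levels in the salt comparisons, where it stood out with NaCl alone. Its differences between NaCl and untreated roots, and between spermidine+NaCl and NaCl, are therefore given as descriptions with no test.

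Basic helix-loop-helix (bHLH) proteins bind DNA as dimers: the basic region contacts E-box motifs, among them the G-box, and the helix-loop-helix region joins the partners. Plants use a large bHLH family in jasmonate signalling, iron uptake, light responses and stress. Jasmonate is a lipid-derived stress hormone. In its absence, TIFY proteins of the JAZ type hold back bHLH factors such as MYC2. The hormone causes the JAZ proteins to be degraded.

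The 7 unigenes differed in what supported their name. Cluster-52034.45453, Cluster-52034.39910, Cluster-52034.93323 and Cluster-52034.93370 had transcription factor bHLH35 of japonica rice as best NR hit. Cluster-52034.93308, Cluster-52034.34441 and Cluster-52034.10061 had an unnamed rice protein there and Arabidopsis bHLH35 as best Swiss-Prot hit. A helix-loop-helix DNA-binding domain was annotated for these last 3. The KEGG database instead placed these 3 under transcription factor MYC2, so the bHLH35 name is less certain for them. Of the unigenes named by NR, only Cluster-52034.93370 was also named bHLH35 by Swiss-Prot. For Cluster-52034.45453, Cluster-52034.39910 and Cluster-52034.93323 the name rests on NR alone, so it is uncertain too. Cluster-52034.93370 carried an ACT domain, a fold that acts in dimer formation in several plant bHLH proteins, and the others had no domain listed. The best TrEMBL hit was shared by Cluster-52034.45453 and Cluster-52034.39910 (Os04g0301500 protein, for which the files give no gene symbol), by Cluster-52034.93308 and Cluster-52034.93323, and by Cluster-52034.34441 and Cluster-52034.10061. Some of the 7 may thus be pieces or alleles of the same gene. The best TrEMBL hit differed between these pairs and again for Cluster-52034.93370, so the 7 may also come from several genes. Single values are uncertain wherever near-identical unigenes share reads. A further unigene named bHLH35, Cluster-52034.41048, lay outside the choice because its best NR hit was from Brachypodium.

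bHLH35 transcripts were abundant in NaCl roots and scarce in every other library. The most abundant unigene, Cluster-52034.45453, was at 11.09, 1.07 and 1.72 FPKM in replicates 1 to 3 of spermidine+NaCl roots, 722.25, 589.58 and 522.76 FPKM in NaCl roots, 19.98, 15 and 1.06 FPKM in spermidine roots and 1.07, 1.15 and 1.14 FPKM in untreated roots. The lowest NaCl library was 26.2 times the highest library of any other group. Outside NaCl, the first spermidine+NaCl library and the first and second spermidine libraries stood above the rest. The remaining libraries of these groups lay close to the untreated ones.

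**Figure D1:**
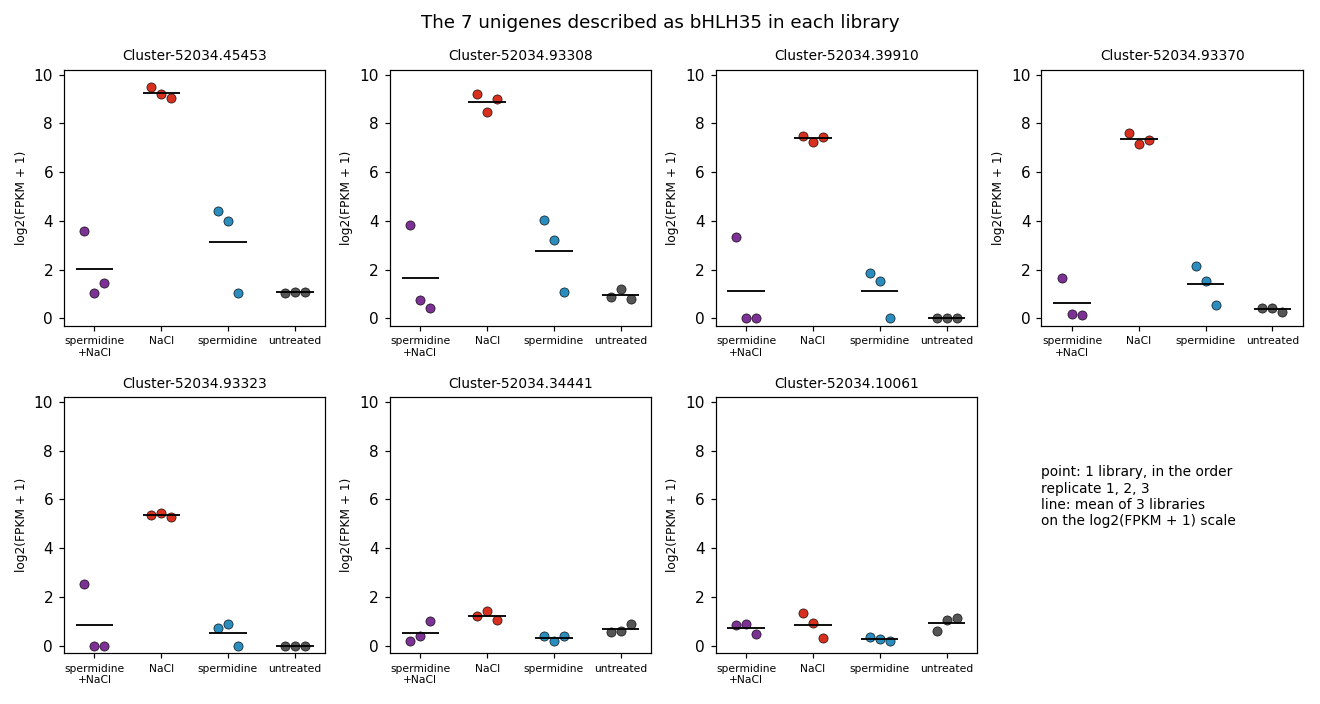
Expression of each of the 7 bHLH35 unigenes as log2(FPKM + 1) (y axis) in the 12 libraries by group (x axis); points are libraries in the order of replicates 1 to 3 and lines are means of 3. In 5 unigenes every NaCl library lies far above all others, and spermidine+NaCl replicate 1 and spermidine replicates 1 and 2 lie above the rest of their groups; the last 2 unigenes stay under 2 FPKM.

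Group means of Cluster-52034.45453 were 4.63 ± 5.61 FPKM with spermidine+NaCl, 612 ± 101.5 with NaCl, 12.01 ± 9.81 with spermidine and 1.12 ± 0.0436 without treatment (SD, n = 3 each). The order of the means was thus NaCl, spermidine, spermidine+NaCl and untreated. The spermidine and spermidine+NaCl groups overlapped. Both reached down to or below the lowest untreated values. On the log2(FPKM + 1) scale, which understates changes of low values, the difference of NaCl minus untreated roots was 8.16 ± 0.83 (SE), and that of spermidine+NaCl minus NaCl roots was -7.22 ± 0.83. The NaCl mean was 546 times the untreated mean and 132 times the spermidine+NaCl mean.

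Cluster-52034.93308, the next in abundance and a carrier of the DNA-binding domain, had the same profile. It was at 13.27, 0.69 and 0.35 FPKM in spermidine+NaCl roots, 583.19, 353.17 and 515.97 FPKM in NaCl roots, 15.57, 8.28 and 1.11 FPKM in spermidine roots and 0.82, 1.29 and 0.72 FPKM in untreated roots. No NaCl library overlapped with another group, and the highest value elsewhere was in the first spermidine library. Its log2 difference was 7.94 ± 0.89 (SE) for NaCl minus untreated and -7.22 ± 0.89 for spermidine+NaCl minus NaCl.

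Cluster-52034.93370, with the ACT domain, was at 2.14, 0.14 and 0.09 FPKM in spermidine+NaCl roots, 193.49, 141.2 and 159.28 FPKM in NaCl roots, 3.43, 1.87 and 0.45 FPKM in spermidine roots and 0.35, 0.35 and 0.19 FPKM in untreated roots. With both treatments together, replicates 2 and 3 lay below all untreated libraries, while replicate 1 lay above them. Its log2 difference was 6.99 ± 0.45 (SE) for NaCl minus untreated and -6.71 ± 0.45 for spermidine+NaCl minus NaCl.

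A pair of unigenes was listed at 0 in every untreated library, so no fold is given for them. Cluster-52034.39910 was at 9.05, 0 and 0 FPKM in spermidine+NaCl roots, 179.39, 149.26 and 172.81 FPKM in NaCl roots and 2.69, 1.88 and 0 FPKM in spermidine roots. Cluster-52034.93323 was at 4.83, 0 and 0 FPKM in spermidine+NaCl roots, 39.58, 42.79 and 37.39 FPKM in NaCl roots and 0.66, 0.84 and 0 FPKM in spermidine roots. Outside NaCl, both were detected only in spermidine+NaCl replicate 1 and in spermidine replicates 1 and 2. A value of 0 can be a failed estimate.

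The remaining pair, which shared a TrEMBL hit, stayed low. Cluster-52034.34441 was at 0.16, 0.33 and 1 FPKM in spermidine+NaCl roots, 1.32, 1.72 and 1.05 FPKM in NaCl roots, 0.31, 0.16 and 0.3 FPKM in spermidine roots and 0.46, 0.52 and 0.85 FPKM in untreated roots. Cluster-52034.10061 was at 0.8, 0.84 and 0.39 FPKM in spermidine+NaCl roots, 1.55, 0.93 and 0.24 FPKM in NaCl roots, 0.29, 0.22 and 0.14 FPKM in spermidine roots and 0.5, 1.06 and 1.19 FPKM in untreated roots. The NaCl libraries of Cluster-52034.34441 lay just above all others, whereas those of Cluster-52034.10061 spanned the range of the untreated ones. In both, the spermidine libraries were low, without the high first and second replicate of the abundant unigenes. Their means over the 12 libraries, 0.682 and 0.679 FPKM, were under the minimum of 1 FPKM for testing. The lowest mean above it was that of Cluster-52034.93323, at 10.5 FPKM. Over the 9 libraries outside NaCl, the means were 5.92 FPKM for Cluster-52034.45453, 4.68 for Cluster-52034.93308, 1.51 for Cluster-52034.39910 and 1.001 for Cluster-52034.93370. Cluster-52034.93323, at 0.703 FPKM there, passed only through the NaCl libraries.

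Cluster-52034.41048, outside the choice by its Brachypodium hit, shared its TrEMBL hit with Cluster-52034.93370. It was at 10.37, 0 and 0.48 FPKM in spermidine+NaCl roots, 158.96, 156.91 and 153.37 FPKM in NaCl roots, 2.5, 2.48 and 0.2 FPKM in spermidine roots and 0, 0.22 and 0.21 FPKM in untreated roots. Its profile matched those of the 5 abundant unigenes in which libraries were high.

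The 7 unigenes may come from several genes, so their sum describes the set and not the level of a single gene. This sum was 41.34, 3.07 and 3.55 FPKM in spermidine+NaCl roots, 1721, 1279 and 1410 FPKM in NaCl roots, 42.93, 28.25 and 3.06 FPKM in spermidine roots and 3.2, 4.37 and 4.09 FPKM in untreated roots. In NaCl roots Cluster-52034.45453 held 37.1% to 46.1% of this sum and Cluster-52034.93308 held 27.6% to 36.6%. Cluster-52034.39910 held 10.4% to 12.3%, Cluster-52034.93370 held 11.0% to 11.3% and Cluster-52034.93323 held 2.3% to 3.35%. The low pair held at most 0.135% each. In spermidine+NaCl replicate 1 the make-up differed: Cluster-52034.39910 held 21.9% and Cluster-52034.93323 held 11.7%, each above its share in any NaCl library.

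**Figure D2:**
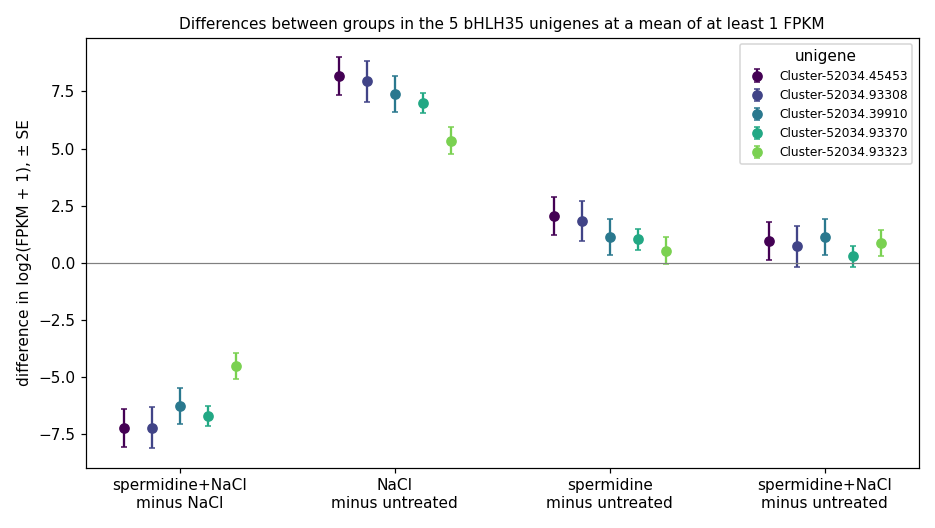
Difference in log2(FPKM + 1) (y axis, ± SE) for 4 comparisons (x axis) in the 5 bHLH35 unigenes that passed the FPKM minimum. All lie between -7.22 and -4.51 for spermidine+NaCl minus NaCl and between 5.35 and 8.16 for NaCl minus untreated; the other comparisons lie closer to 0.

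The comparison of spermidine alone with untreated roots was tested, because its spermidine libraries lie outside the salt comparisons by which bHLH35 was chosen; its untreated libraries do not, so the test is not fully independent of that choice. limma, fitted to all 65836 unigenes averaging 1 FPKM or more, called 2.55% of all unigenes and 0.294% of those with a rice hit at an adjusted p below 0.05. For Cluster-52034.45453 the log2 difference of spermidine minus untreated was 2.06 ± 0.83 (SE; limma adjusted p = 0.315). The difference hung on single spermidine libraries, and its SE pools the spread of all 4 groups. Without spermidine replicate 3 the difference was 3.11 ± 0.60 (limma adjusted p = 0.0401), and without replicate 1 it was 1.44 ± 0.87 (limma adjusted p = 0.651). The difference was 1.83 ± 0.89 for Cluster-52034.93308, 1.14 ± 0.79 for Cluster-52034.39910 and 1.03 ± 0.45 for Cluster-52034.93370 (SE; limma adjusted p = 0.438, 0.603 and 0.362). Cluster-52034.93323, which was in the fit only through its NaCl values, differed by 0.54 ± 0.57. With all libraries, none of the differences given with an adjusted p passed the threshold, which does not show that the groups were alike.

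With spermidine+NaCl, Cluster-52034.45453 differed from untreated roots by 0.95 ± 0.83 on the log2 scale (SE) and from spermidine roots by -1.12 ± 0.83, each little larger than its SE. Single libraries decided both values. Without spermidine replicate 3 the difference from spermidine roots was -2.17, and without spermidine replicate 1 it was -0.49. Without spermidine+NaCl replicate 1 the difference from untreated roots was 0.16, and the values of Cluster-52034.93308 and Cluster-52034.93370 turned to -0.35 and -0.22, against 0.73 and 0.28 with all libraries. The interaction, which subtracts the spermidine response of roots without salt from that of roots with NaCl, was -9.28 ± 1.18 for Cluster-52034.45453 and ran from -9.05 to -5.04 in the other 4 unigenes that passed. Since these differences use the libraries by which bHLH35 was chosen, they are descriptions.

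The libraries were checked against markers of tissue and RNA quality. Root marker unigenes (matched by name to silicon transporters, Casparian strip membrane proteins, SCARECROW, SHORT-ROOT, RCc3 and nicotianamine aminotransferase, 127 in all) summed to 4779 to 5324 FPKM in spermidine+NaCl roots, 3786 to 4151 in NaCl roots, 6032 to 7144 in spermidine roots and 6612 to 7222 in untreated roots. At most 1 of the 127 was at 0 throughout a group. Markers of green shoot tissue (60 unigenes) summed to 349 to 367, 240 to 544, 319 to 476 and 388 to 447 FPKM in the same order of groups, with 1 to 5 of the 60 at 0. Unigenes of genes encoded in organelles (35) summed to 154 to 253, 82.1 to 103.5, 212 to 275 and 184 to 218 FPKM, with 3 of the 35 at 0 in each group. The spermidine+NaCl library with the highest bHLH35, replicate 1, had the lowest organelle sum of its group at 154 FPKM, while spermidine replicates 1 and 2, at 218 and 212 FPKM, were under replicate 3 at 275 FPKM. Root and organelle sums were thus lowest in NaCl roots, where bHLH35 was highest, and the part of cell make-up or RNA quality in the levels of bHLH35 was not tested. In whole roots, fewer cells of a type and less marker RNA per cell, as when a marker itself responds to treatment, cannot be told apart. Library sums of FPKM lay between 1312574 and 1371599, and the relative depth read from low values lay between 0.936 and 1.07. That estimate was sought only within a narrow window around the first untreated library, so it could not have shown a large difference in depth. Unigenes with a rice hit held 76.5% to 79.2% of FPKM in spermidine+NaCl libraries and 80.4% to 81.6% in NaCl libraries. The share was 73.5% to 77.4% in spermidine libraries and 73.8% to 78.2% in untreated ones. The part of the other unigenes in the group comparisons was not tested. Total depth is unknown, since FPKM keeps no read counts.

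The other abundant bHLH35 unigenes followed the first closely across the 12 libraries. Pearson's r of log2(FPKM + 1) with Cluster-52034.45453 was 0.994 for Cluster-52034.93308, 0.985 for Cluster-52034.93370, 0.984 for Cluster-52034.39910 and 0.968 for Cluster-52034.93323, but 0.62 for Cluster-52034.34441 and 0.163 for Cluster-52034.10061. Over the 9 libraries outside NaCl the values were 0.961, 0.961, 0.867, 0.726, -0.583 and -0.374 in the same order of unigenes. These correlations describe points that share their libraries, and the NaCl group sets most of the 12-library values. Among 19183 other rice-hit unigenes with an informative description that averaged 5 FPKM or more in some group, 1445 (7.53%) reached r of 0.9 over the 12 libraries. Over the 9 libraries outside NaCl, 72 (0.375%) did.

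The 10 unigenes most like Cluster-52034.45453 were taken with each description counted once, and which unigenes these are depends on the measure: 1 of the 10 remained with Spearman's rho and 5 with a pseudocount of 0.1. The closest by Pearson's r was a unigene of TIFY 11e, a JAZ-type repressor of jasmonate responses (r = 0.994). It was at 7.78, 0.63 and 0.64 FPKM in spermidine+NaCl roots, 128, 113.4 and 130.3 FPKM in NaCl roots, 4.98, 5.53 and 0.43 FPKM in spermidine roots and 0.45, 0.67 and 0.33 FPKM in untreated roots. Like bHLH35, it was high in every NaCl library and above the rest in spermidine+NaCl replicate 1 and spermidine replicates 1 and 2.

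Next were the ethylene-responsive factor ERF4 (r = 0.993), the DREB-type factor DREB1G (r = 0.992) and WRKY28 (r = 0.991), members of families that bind promoters of stress genes. DREB1G was at 4.45, 0.06 and 0.29 FPKM in spermidine+NaCl roots, 78.9, 64.0 and 68.7 FPKM in NaCl roots, 3, 2.22 and 0.1 FPKM in spermidine roots and 0.43, 0 and 0 FPKM in untreated roots. The ethylene-responsive factor ERF1A and the CBS-domain protein CBSX5 (r = 0.989 each) started from a higher base. ERF1A was at 38.4 ± 25.8 FPKM with spermidine+NaCl, 203 ± 19.4 with NaCl, 44.3 ± 18.4 with spermidine and 25.9 ± 1.67 untreated (SD, n = 3). The list of 10 was completed by the RING-H2 finger protein ATL36 (0.989), ERF110 (0.988), WRKY71 (0.988) and a NOI-like protein (0.987). In each of the 10, all NaCl libraries were above all others. This largely follows from choosing them by likeness to a profile set by NaCl, so it is no separate result.

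The most opposite profiles were those of glycolipid transfer protein 3 (r = -0.979), a homolog of the autophagy receptor NBR1 (r = -0.976) and Expansin-B7 (r = -0.975), of a family that loosens cell walls. Expansin-B7 was at 71.8, 132.6 and 116.9 FPKM in spermidine+NaCl roots, 19.4, 26.0 and 31.4 FPKM in NaCl roots, 92.1, 72.8 and 114.4 FPKM in spermidine roots and 102.5, 136.5 and 121.4 FPKM in untreated roots. The libraries with more bHLH35 than the rest of their group had the lower Expansin-B7 values, which the choice by opposite profile favours.

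**Figure D3:**
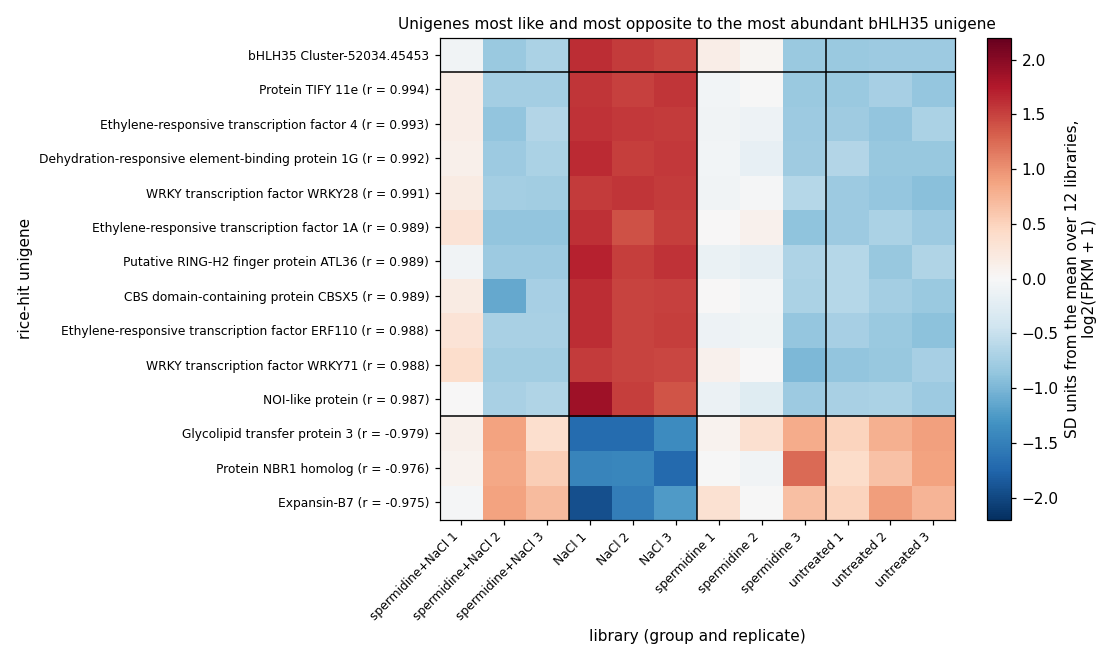
Expression of the most abundant bHLH35 unigene, the 10 rice-hit unigenes most like it and the 3 most opposite (rows, with Pearson's r) in the 12 libraries (columns), as SD units from the row mean of log2(FPKM + 1). The NaCl libraries are at the high end of the like rows, and spermidine+NaCl replicate 1 and spermidine replicates 1 and 2 are intermediate.

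The rest of the bHLH family, taken by name among rice hits, held 361 unigenes, of which 223 were tested. They include 2 phytochrome-interacting ankyrin-repeat proteins, which are not bHLH factors and were not called. With NaCl against untreated roots, limma called 42 higher and 45 lower, 18.8% and 20.2%. The background was 10% higher and 12.9% lower over all unigenes and 12.4% and 14.7% over rice hits. The FPKM minimum was taken over all 12 libraries, so some unigenes passed it only through NaCl. This favours calls higher with NaCl, and lower with spermidine+NaCl against NaCl, in the lists and the background alike. The median log2 difference of the 223 was -0.15, beside -0.13 over all unigenes. Under median-ratio scaling of the libraries, where the median over all unigenes was -0.021, the family had 47 higher and 32 lower, beside 15.2% and 9.41% of rice hits. The family was thus not called in a single direction.

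BHLH148, a factor known in rice from jasmonate-regulated drought responses, had the largest rises of the family. All 3 of its unigenes were called higher with NaCl and lower with spermidine+NaCl than with NaCl. Cluster-52034.58002, also the most abundant member of the list, was at 288.87, 29.13 and 13.81 FPKM in spermidine+NaCl roots, 4628.99, 2183.52 and 3485.31 FPKM in NaCl roots, 99.95, 110.22 and 20.86 FPKM in spermidine roots and 32.88, 25.63 and 30.37 FPKM in untreated roots. The same spermidine+NaCl and spermidine libraries stood out as for bHLH35. Its log2 difference was 6.75 ± 0.96 for NaCl minus untreated and -6.02 ± 0.96 for spermidine+NaCl minus NaCl (SE; limma adjusted p = 0.000661 and 0.00215). For Cluster-52034.44042, the other named BHLH148 unigene, the values were 6.52 ± 0.68 and -5.74 ± 0.68 (limma adjusted p = 9.84e-05 and 0.000368).

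MYC2, the bHLH factor at the head of jasmonate signalling, was named here after its values were seen. Of the 5 unigenes described as MYC2, 3 were called higher with NaCl and 0 lower by limma. The bHLH35 unigenes that KEGG placed under MYC2 are not among them. Those 3 were called lower with spermidine+NaCl than with NaCl, and the other 2 were called higher there. Cluster-52034.81394 was at 3.60 ± 4.62 FPKM with spermidine+NaCl, 57.7 ± 5.62 with NaCl, 3.35 ± 2.40 with spermidine and 1.73 ± 1.05 untreated (SD, n = 3). Those other 2, Cluster-52034.77823 and Cluster-52034.80132, had the same value in every library and count as 1 measurement: 33.0 ± 3.01 FPKM with spermidine+NaCl, 26.2 ± 1.29 with NaCl, 24.0 ± 0.57 with spermidine and 27.3 ± 1.56 untreated. Their log2 difference for spermidine+NaCl minus NaCl was 0.32 ± 0.08 (SE; limma adjusted p = 0.0275), and it was not called under median-ratio scaling.

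The 2 largest falls of the family with NaCl were in iron regulators, but falls were not confined to these. A unigene described as APG (Cluster-52034.51727) fell almost as far, by -2.06 ± 0.33 (SE, limma adjusted p = 0.00146). IRON-RELATED TRANSCRIPTION FACTOR 2 (IRO2), which in rice promotes iron uptake, was at 15.05, 12.01 and 17.95 FPKM in spermidine+NaCl roots, 2.42, 6.08 and 6.65 FPKM in NaCl roots, 17.62, 13.07 and 13.33 FPKM in spermidine roots and 21.67, 25.34 and 22.78 FPKM in untreated roots in Cluster-52034.61408. The NaCl libraries lay below all others. Its log2 difference was -2.09 ± 0.28 for NaCl minus untreated and 1.47 ± 0.28 for spermidine+NaCl minus NaCl (SE; limma adjusted p = 0.000411 and 0.00533). Of the 6 IRO2 unigenes, limma called 5 lower with NaCl and 3 higher with spermidine+NaCl than with NaCl, and under median-ratio scaling 5 and 2. The most abundant of them, Cluster-52034.61406, was named after its values were seen and changed less. It was at 278 ± 52.4 FPKM with spermidine+NaCl, 176 ± 18.3 with NaCl, 294 ± 40.4 with spermidine and 352 ± 34.7 untreated (SD, n = 3). Its log2 difference was -0.99 ± 0.15 for NaCl minus untreated and 0.64 ± 0.15 for spermidine+NaCl minus NaCl (SE, limma adjusted p = 0.000839 and 0.0151). A unigene described as FIT, known from Arabidopsis iron uptake (Cluster-52034.70359), was at 1.08, 2.63 and 3.39 FPKM with spermidine+NaCl, 0, 0.21 and 0.43 FPKM with NaCl, 3.39, 2.81 and 3.22 FPKM with spermidine and 2.23, 5.16 and 5.46 FPKM untreated. Its differences were -2.07 ± 0.33 for NaCl minus untreated and 1.42 ± 0.33 for spermidine+NaCl minus NaCl (limma adjusted p = 0.00125 and 0.0155). The second call was lost without NaCl replicate 1 or without spermidine+NaCl replicate 2 or 3 (limma adjusted p = 0.0626, 0.0587 and 0.0616), and when only the groups compared were fitted (0.0705). A more abundant unigene described as FIT, Cluster-52034.70360, was named after its values were seen. It was at 56.0 ± 7.19 FPKM with spermidine+NaCl and 25.1 ± 1.18 with NaCl (SD, n = 3). Without NaCl it was at 46.9 ± 3.21 with spermidine and 65.3 ± 8.08 untreated. Its log2 difference was -1.34 ± 0.12 for NaCl minus untreated (SE, limma adjusted p = 3.09e-05). For spermidine+NaCl minus NaCl it was 1.12 ± 0.12 (limma adjusted p = 0.000161).

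With spermidine+NaCl against NaCl roots, 40 of the 223 other bHLH unigenes were called higher (17.9%) and 35 lower (15.7%) by limma. The background was 8.63% and 7.18% over all unigenes and 10.5% and 8.85% over rice hits. The median log2 difference was 0.19, beside 0.14 over all unigenes. The split turned under median-ratio scaling, which set the median over all unigenes to 0: 21 were higher and 40 lower, beside 4.38% and 10.4% of rice hits. Without NaCl replicate 1 it was 20 higher and 27 lower.

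The jasmonate list, taken by words in the descriptions, held 200 rice-hit unigenes, of which 141 were tested, and 6 of these (MYC2 among them) were also in the bHLH list. Some are not jasmonate genes: 8 potassium channel unigenes came in because the word rectifying contains TIFY. With NaCl against untreated roots 2 of these 8 were called higher and 2 lower, and with spermidine+NaCl against NaCl 2 and 1. Another 8 were GATA factors and 2 were RNA polymerase II phosphatases, brought in by alternative names. Over the whole list, limma called 60 higher (42.6%) and 21 lower (14.9%) with NaCl against untreated roots, beside 12.4% and 14.7% of rice hits, with a median log2 difference of 0.22. As in the bHLH list, some of these unigenes passed the FPKM minimum only through NaCl, which favours calls higher with NaCl and lower with spermidine+NaCl against NaCl. TIFY 11c (Cluster-52034.47757) averaged 8.44 FPKM with NaCl, 0.63 with spermidine+NaCl, 0.30 with spermidine and 0.3 untreated. The counts below share this limit. Median-ratio scaling gave 63 higher and 13 lower, and the lower share was then 9.22%, beside 9.41% of rice hits. Of 24 TIFY unigenes 20 were higher and 1 lower, of 29 lipoxygenase unigenes 8 and 5, and of 7 allene oxide unigenes, of the next step of jasmonate synthesis, 4 and 3. Of 15 oxophytodienoate reductase unigenes, of a later step, 8 were higher and 1 was lower. Under median-ratio scaling the counts were 21 and 0 for TIFY, 10 and 3 for lipoxygenase, 4 and 2 for allene oxide and 8 and 0 for oxophytodienoate. With spermidine+NaCl against NaCl roots, 14 were higher (9.93%) and 54 lower (38.3%), beside 10.5% and 8.85% of rice hits, with a median of -0.09. Median-ratio scaling gave 4 higher and 58 lower. TIFY had 1 higher and 20 lower, lipoxygenase 0 and 5, allene oxide 2 and 4, and oxophytodienoate reductase 1 and 7.

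TIFY 11e, the named gene most like bHLH35, also had the largest jasmonate rises, in other unigenes. Cluster-52034.94282, the most abundant of the list, was at 90.72, 0 and 12.6 FPKM in spermidine+NaCl roots, 1144.86, 1323.01 and 1160.27 FPKM in NaCl roots, 39.43, 33.98 and 0 FPKM in spermidine roots and 2.99, 2.97 and 2.98 FPKM in untreated roots. Its log2 difference was 8.25 ± 1.61 for NaCl minus untreated and -6.81 ± 1.61 for spermidine+NaCl minus NaCl (SE; limma adjusted p = 0.00429 and 0.0175). The second call was lost without NaCl replicate 1 or 3 or spermidine+NaCl replicate 2 (limma adjusted p = 0.0558, 0.0534 and 0.0531), and with a pseudocount of 0.1 (0.0597). Cluster-52034.96086 differed by 7.61 ± 1.11 and -6.03 ± 1.11 (limma adjusted p = 0.000748 and 0.00475).

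The largest jasmonate-list falls with NaCl were in cytosolic sulfotransferase 16 and a unigene of cytochrome P450 94C1. The sulfotransferase acts in glucosinolate synthesis in Arabidopsis and came into the list by an alternative name. Cluster-52034.12289 was at 0.81, 1.28 and 1.43 FPKM in spermidine+NaCl roots, 0.37, 0.6 and 0.3 FPKM in NaCl roots, 5.97, 4.08 and 3.56 FPKM in spermidine roots and 4.36, 4.45 and 2.72 FPKM in untreated roots. It was low in both groups with NaCl, with a log2 difference of -1.75 ± 0.23 for NaCl minus untreated (SE; limma adjusted p = 0.000351). For spermidine+NaCl minus NaCl it was 0.61 ± 0.23 (limma adjusted p = 0.101), and with a pseudocount of 0.1 it passed (limma adjusted p = 0.0321). Cytochrome P450 94C1, known from Arabidopsis, oxidises the active jasmonate conjugate. Its Cluster-52034.104931 was at 5.23 ± 0.335 FPKM with spermidine+NaCl, 7.06 ± 1.36 with NaCl, 17.8 ± 4.52 with spermidine and 21.2 ± 4.89 untreated (SD, n = 3), a log2 difference of -1.45 ± 0.20 for NaCl minus untreated (limma adjusted p = 0.000587). Other unigenes of that name went the opposite way: of 10 tested, 5 were called higher with NaCl.

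With both treatments against untreated roots, limma called 6 higher and 5 lower of the 223 other bHLH unigenes, and 3 higher and 4 lower of the 141 jasmonate unigenes, beside 4.54% of rice hits in either direction. With spermidine alone, 1 unigene of each list was called, both lower, beside 0.294% of rice hits. They were named after their values were seen. BHLH062 (Cluster-52034.70086) was at 45.2 ± 5.99 FPKM with spermidine and 69.6 ± 4.90 untreated (SD, n = 3; limma adjusted p = 0.031). Cytochrome P450 94B1 (Cluster-52034.55350) was at 8.14 ± 0.86 FPKM with spermidine and 13.3 ± 1.21 untreated (SD, n = 3; limma adjusted p = 0.0281). For the interaction, limma called 12.1% of rice hits.

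**Figure D4:**
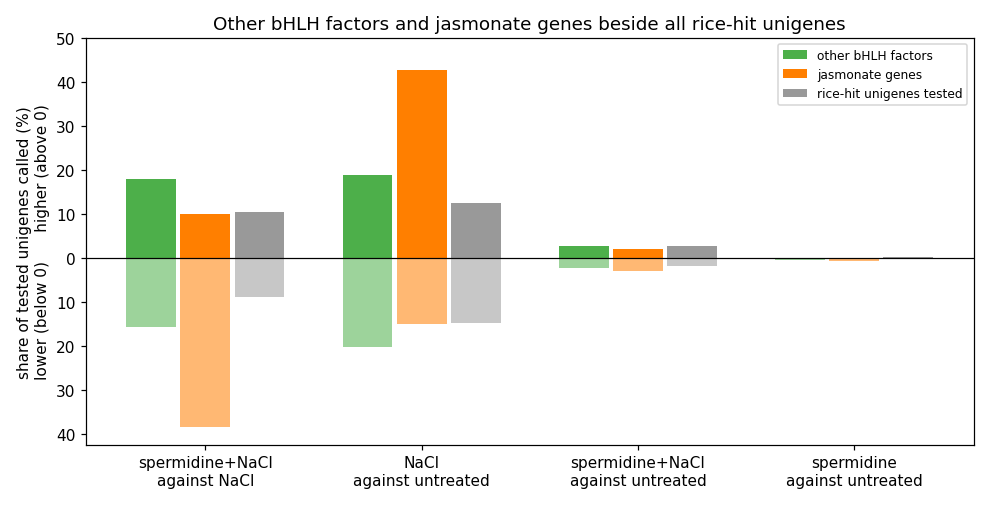
Share of tested unigenes called by limma (y axis, percent; above 0 higher, below 0 lower) in the bHLH list, the jasmonate list and all rice-hit unigenes, for 4 comparisons (x axis). The jasmonate list stands at 42.6% higher with NaCl against untreated roots and 38.3% lower with spermidine+NaCl against NaCl, beside 12.4% and 8.85% of rice hits. Some unigenes passed the FPKM minimum only through NaCl, which favours such calls.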

How the data were processed

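The authors deposited FPKM per unigene and library. The tools named, per the submitters' processing notes, are RSEM, Bowtie2 and CASAVA 1.8. Their roles, the assembly and any filters are not given. All value columns belonged to the 12 libraries. Values were tested as log2(FPKM + 1) for unigenes averaging 1 FPKM or more, with limma 3.58.1 in R 4.3.3: 4 group means in 1 fit, variances following the mean, two-sided tests, Benjamini-Hochberg adjustment over 65836 unigenes, calls at 0.05. The fit was checked on simulated data. Gene lists used words in NR and Swiss-Prot descriptions of rice hits (41491 tested).

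The named genes were the 10 unigenes with the highest and the 3 with the lowest Pearson's r to the most abundant bHLH35 unigene, and, per list, the 2 largest rises, the 2 largest falls and the most abundant member. Members and lists were chosen with earlier results of these data known. Alternatives were another pseudocount (0.1), other filters, scalings and fits, a replicate block and leaving out each library. No sequences or genome positions are given.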

Additional observations from a re-analysis of the deposited data

Results flagged for a closer look

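In 6 of the 8 named unigenes of the bHLH and jasmonate lists, the effect of spermidine under NaCl differed from its effect without NaCl by the interaction test (limma, adjusted p below 0.05). The interaction subtracts the log2 response to spermidine of roots without salt from that of roots with NaCl. For BHLH148 it was -7.06 in Cluster-52034.58002 (limma adjusted p = 0.00901) and -7.01 in Cluster-52034.44042 (limma adjusted p = 0.00162). For TIFY 11e it was -8.31 in Cluster-52034.94282 (limma adjusted p = 0.0437) and -8.21 in Cluster-52034.96086 (limma adjusted p = 0.00853). In the opposite direction it was 2.11 for IRO2 in Cluster-52034.61408 (limma adjusted p = 0.00721) and 1.71 for FIT in Cluster-52034.70359 (limma adjusted p = 0.0416). These unigenes were named for their large NaCl minus untreated differences, whose untreated libraries and NaCl libraries also enter the interaction, so the values are not independent evidence of it. The other 2 named unigenes had 0.41 for the sulfotransferase in Cluster-52034.12289 and -0.12 for cytochrome P450 94C1 in Cluster-52034.104931 (limma adjusted p = 0.477 and 0.845). Over all rice hits 12.1% were called. With groups of 3 libraries, single libraries were not tested for standing apart.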

How the results depend on the processing

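The bHLH35 difference for spermidine against untreated roots kept its direction in every alternative run. It passed the threshold only without spermidine replicate 3, and leaving out 1 library gave 1.44 to 3.11. With the replicate number as a block it was 2.06 (limma adjusted p = 0.243). Same-numbered libraries had correlations of deviations of -0.109 to 0.147. Values this small do not show a pairing, but with 3 libraries per group they cannot exclude it either. The count of other bHLH unigenes called for spermidine+NaCl against NaCl was 75, and 47 to 78 with 1 library left out; the lowest was without NaCl replicate 1. The other list totals, over both directions, stayed within 1.5 times in every alternative run. By direction, median-ratio scaling moved the jasmonate list to 4 higher, against 14, for spermidine+NaCl against NaCl, and to 13 lower, against 21, for NaCl against untreated. Summing the 7 unigenes, an alternative chosen after seeing the data, gave 1.84 (limma adjusted p = 0.485). A pseudocount of 0.1 raised the NaCl minus untreated difference of Cluster-52034.39910 to 10.7, since its untreated values are 0. Of the 10 most alike genes, 5 to 9 remained with 1 library left out, 5 with a pseudocount of 0.1 and 1 with Spearman's rho. Total depth is unknown, so values near 0 cannot be given a counting error.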

Other observations

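When likeness to bHLH35 was read from the 9 libraries outside NaCl alone, a choice made after seeing the data, 4 of the 10 most alike genes were shared with those of all 12 libraries: TIFY 11e, ERF1A, ERF4 and the NOI-like protein. The highest values of r belonged to ATL44, ERF018 and ERF020, which met the FPKM minimum only through NaCl and were at or near 0 in the 9 libraries, so nothing is read from them. A lectin-domain receptor kinase, IV.1 (0.952), was at 9.05, 5.6 and 6.77 FPKM in spermidine+NaCl roots, 15.6, 12.3 and 15.6 FPKM in NaCl roots, 14.5, 12.3 and 5.38 FPKM in spermidine roots and 6.55, 7.05 and 6.04 FPKM in untreated roots. Its first and second spermidine libraries thus lay close to the NaCl libraries, whereas those of bHLH35 lay far below them.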
